A study of Mus musculus with 32 samples.

Results

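The 8 genes described here, Sox2, Stmn2, Tubb3, Syndig1, Nrg2, Myf5, Dlx3 and Celf5, act in neural, muscle or epidermal development, and here they were measured in mouse embryonic fibroblasts. They are 8 of the 39017 genes in the deposited table of read counts, and they were chosen because their levels differ between the 4 cell lines of the study. The authors' comparison tables pair 6 of them with their gene IDs, and Syndig1 and Myf5 were found by their symbols in GENCODE M21. Because differences between lines chose the genes, levels by line are a description with no test. Tests are given for changes with treatment and with time inside a line, which the choice did not use.

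The first pair of lines lacks or carries ATM, a DNA damage kinase: an ATM knock-out line and wtATM. The second lacks or carries ATMIN, a zinc finger protein that binds ATM: an ATMIN knock-out line and wtATMIN. Cells of every line received 1 µM aphidicolin (APH), which blocks the replicative DNA polymerases, or the solvent DMSO, for 4 h or 24 h. This gave 16 groups of 2 libraries, 32 libraries in all, with 8 per line. With 1 line a genotype, an effect of the deletion and one of the line cannot be told apart, and the labels name neither the deleted allele nor the mouse strain. The labels do not say whether the 2 libraries of a group came from separate cultures, so p-values measure only the spread between these libraries.

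Total counts ran from 9321329 to 21020662 per library, and levels are given as CPM, read counts scaled to library size. Atmin averaged 5.27 ± 1.06 CPM in ATMIN knock-out cells and 26.6 ± 4.54 CPM in wtATMIN (SD, n = 8 each). Atm averaged 34.3 ± 9.33 CPM in ATM knock-out cells and 54.3 ± 8.75 CPM in wtATM (SD, n = 8 each). Both libraries of ATM knock-out cells with APH for 4 h stood apart. Replicate 2 had reads in 406 of 1434 olfactory and vomeronasal receptor genes, against 17 to 155 in the other libraries, with the 155 in replicate 1. The abundant transcript Gm42418 was at 13783 to 97900 CPM in the 4 h libraries and at 252 to 5754 CPM in the 24 h libraries. The 97900 CPM were in replicate 1 of ATM knock-out cells with APH for 4 h, and the next highest library had 41292 CPM.

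Most of these genes are silent in a typical fibroblast and are switched on in particular embryonic cell types. Sox2 encodes a transcription factor of pluripotent cells and neural progenitors. Stmn2 and Tubb3 encode a microtubule-destabilising stathmin of neuronal growth cones and the neuronal beta-tubulin, and Syndig1 encodes a membrane protein that binds AMPA receptors at excitatory synapses. Nrg2 encodes a neuregulin, a ligand of ERBB receptors, and Celf5 an RNA-binding splicing regulator found mainly in brain. Myf5 encodes a basic helix-loop-helix factor that commits cells to skeletal muscle, and Dlx3 a homeobox factor of epidermis, hair and placenta.

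Start-site windows were at hand for 5 of the 8 genes (Sox2, Tubb3, Syndig1, Myf5 and Celf5), from RefSeq on build GRCm38.p6. The 250 bases before the start site are printed for Celf5, the member that changed most widely with APH, and for Myf5, a member found in a single line. Capitals mark a match to the p53 half-site decamer. The table holds 5 windows for Celf5, and the one farthest upstream is used, whose last bases lie inside the gene as GENCODE draws it. Against GENCODE the Syndig1 window (149830533 to 149830782) lies wholly inside the gene. The Tubb3 window (123411303 to 123411552) runs into its gene, and the Sox2 window (34649745 to 34649994) ends short of its gene. p53 is a transcription factor that DNA damage signalling activates, and its full sites are pairs of such decamers.
Celf5, chr10:81482700-81482949, minus strand: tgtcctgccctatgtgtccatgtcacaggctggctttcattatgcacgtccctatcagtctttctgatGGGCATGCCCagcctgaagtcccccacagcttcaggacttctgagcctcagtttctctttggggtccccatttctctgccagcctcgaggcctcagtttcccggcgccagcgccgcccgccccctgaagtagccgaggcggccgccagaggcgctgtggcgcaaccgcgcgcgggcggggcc
Myf5, chr10:107486135-107486384, minus strand: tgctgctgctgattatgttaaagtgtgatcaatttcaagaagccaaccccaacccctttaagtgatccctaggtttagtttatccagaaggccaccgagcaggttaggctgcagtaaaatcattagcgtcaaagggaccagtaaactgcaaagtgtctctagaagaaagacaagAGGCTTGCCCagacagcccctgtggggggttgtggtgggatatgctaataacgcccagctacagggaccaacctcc
The Celf5 window holds 1 decamer match, at positions -182 to -173 from the start site, and 3 matches to GGGCGG. The Myf5 window holds 1 decamer match, at positions -76 to -67 from the start site, and no GGGCGG. Tubb3 also has 1 decamer match, and Sox2 and Syndig1 have none. A decamer match on either strand occurs in 7.13% of the 32851 windows of this length in the table, GGGCGG in 32.7% and CANNTG in 66.2%. None of the 5 windows holds CANNTG or TATAAA. The windows differ in CpG content: Sox2 has 27 CpG, Tubb3 21, Syndig1 20, Celf5 17 and Myf5 3, beside a median of 6 over all windows. A match describes these letters only.

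The genes lie far apart (build mm10). Sox2 is a single-exon gene on the plus strand of chromosome 3 (start 34650405, end 34652461), and Stmn2 is on the same chromosome and strand (start 8509360, end 8561606). Tubb3 is on chromosome 8 (start 123411424, end 123422015) and Dlx3 on chromosome 11 (start 95120119, end 95125296), both on the plus strand. Syndig1 is on chromosome 2, plus strand (start 149829211, end 150004392), and Nrg2 on chromosome 18, minus strand (start 36017652, end 36197380). Myf5 (start 107482908, end 107486134) and Celf5 (start 81459227, end 81482709) are both on the minus strand of chromosome 10. The library kit does not mark strand, so reads of Celf5 and its antisense gene Gm16105, and of Syndig1 and its antisense gene C530025M09Rik, cannot be told apart. Nrg2 is also overlapped by the antisense gene 4930471G03Rik, and Sox2 by Sox2ot on its own strand. Neither of these has counts of its own here. Tubb3 lies inside the readthrough gene Gm20388, and its coding sequence resembles that of other beta-tubulins, so reads could be split between them. All 8 genes passed the filter on low counts, which asked for at least 0.618 CPM in some libraries. Syndig1 passed through ATM knock-out cells alone and Myf5 through wtATM alone. Nrg2 passed through wtATM too, with 8 libraries above that level there, 1 in wtATMIN and 0 in each knock-out line. Sox2 and Tubb3 exceeded that level in every library.

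Syndig1 was a gene of ATM knock-out cells. Its lowest, median and highest levels over the 8 libraries of that line were 23.8, 29.0 and 33.8 CPM, against 0 reads in all 8 wtATM libraries. Set against 3 reads over the wtATM libraries, it was at least 1209-fold higher in ATM knock-out cells. In ATMIN knock-out cells it had 15 reads and in wtATMIN 1 read over 8 libraries each, so no library outside ATM knock-out cells came near its level there.

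Nrg2, Myf5 and Dlx3 were genes of wtATM, the ligand, the muscle factor and the homeobox factor together. Nrg2 had 0 reads in the 8 ATM knock-out libraries, against 7.39, 13.9 and 17.05 CPM (lowest, median, highest) in wtATM. It was therefore at least 509.8-fold lower in ATM knock-out cells, and it stood at 0.195 ± 0.141 CPM in ATMIN knock-out cells and 0.279 ± 0.195 CPM in wtATMIN (SD, n = 8 each). Neither line of the ATMIN pair was clearly above the other for Nrg2, as their ranges overlapped.
Myf5 had 2 reads over the 8 ATM knock-out libraries, against 17.2, 20.2 and 26.3 CPM (lowest, median, highest) in wtATM. It had 1 read in ATMIN knock-out cells and 3 reads in wtATMIN. The wtATM level was 1235 times that of ATM knock-out cells, with a 95% counting interval of 342 to 10201. Myf5 was thus effectively a single-line gene at this depth.
Dlx3 had 1 read over the ATM knock-out libraries, against 13.02, 25.6 and 38.1 CPM (lowest, median, highest) in wtATM. It also differed within the ATMIN pair: 0.253 ± 0.122 CPM in ATMIN knock-out cells and 3.05 ± 1.14 CPM in wtATMIN (SD, n = 8 each), without overlap. Of the 3 wtATM genes, Dlx3 was the one with a clear second level elsewhere.

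**Figure D1:**
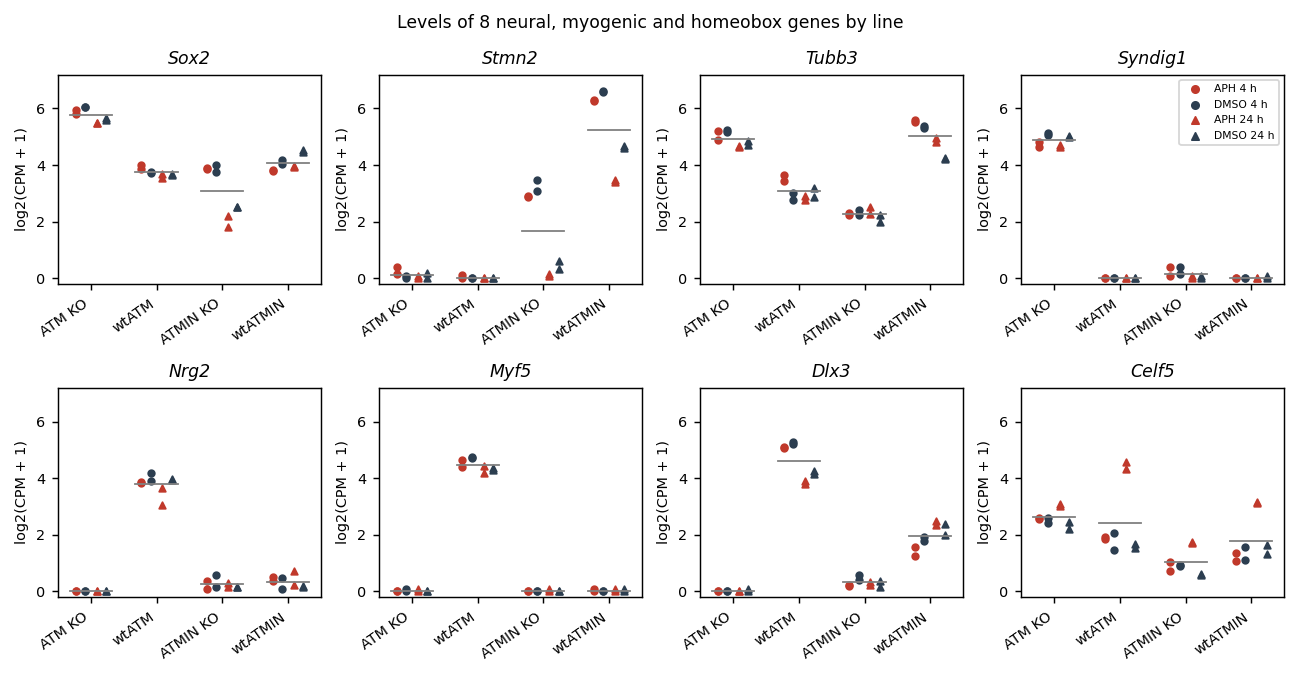
Level of each of the 8 genes in every library, as log2(CPM + 1), by line; circles are 4 h and triangles 24 h libraries, red APH and dark DMSO, and the grey bar is the mean of 8 libraries on this scale. Syndig1 is near 0 outside ATM knock-out cells (ATM KO), and Nrg2 and Myf5 are near 0 outside wtATM.

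Sox2 and the neuronal cytoskeleton genes were graded rather than confined to 1 line. Sox2 averaged 53.8 ± 9.20 CPM in ATM knock-out cells and 12.4 ± 1.25 CPM in wtATM, and 8.78 ± 5.33 CPM in ATMIN knock-out cells and 16.3 ± 3.45 CPM in wtATMIN (SD, n = 8 each). Every ATM knock-out library was above every library of the other lines. Below it, wtATMIN, wtATM and ATMIN knock-out cells overlapped, and after 4 h of DMSO those lines lay within 12.3 to 16.3 CPM. The gap between the ATMIN pair was seen at 24 h, with 4.72 and 4.74 CPM in ATMIN knock-out cells and 20.8 and 22.1 CPM in wtATMIN after DMSO.

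Tubb3 was high in 1 line of each pair. It averaged 29.6 ± 5.22 CPM in ATM knock-out cells and 7.62 ± 2.09 CPM in wtATM, and 3.84 ± 0.493 CPM in ATMIN knock-out cells and 33.1 ± 11.6 CPM in wtATMIN (SD, n = 8 each). The ranges did not overlap within either pair, so the knock-out line was the higher one in the ATM pair and the lower one in the ATMIN pair. ATM knock-out cells and wtATMIN overlapped at the top of the order.
Stmn2 followed Tubb3 in the ATMIN pair but not in the ATM pair. Its lowest, median and highest levels were 0.0524, 3.41 and 10.1 CPM in ATMIN knock-out cells and 9.57, 50.4 and 96.8 CPM in wtATMIN, and these ranges overlapped, with the lowest wtATMIN libraries at 24 h and the highest ATMIN knock-out library at 4 h. Over 8 libraries it had 9 reads in ATM knock-out cells and 1 read in wtATM, so a line with abundant Tubb3 had almost no Stmn2.

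Celf5 was the least line-bound of the 8. It averaged 5.26 ± 1.33 CPM in ATM knock-out cells and 7.04 ± 8.65 CPM in wtATM, and 1.15 ± 0.754 CPM in ATMIN knock-out cells and 3.14 ± 2.92 CPM in wtATMIN (SD, n = 8 each). The wide spread came from the 24 h APH libraries: ATM knock-out cells were highest in 3 of the 4 conditions, and wtATM was the highest after 24 h of APH. The authors' deposited tables show the same turn, with a log2 fold change of ATM knock-out cells over wtATM of 0.87 and 0.90 after 4 h and 24 h of DMSO, 0.82 after 4 h of APH and -1.51 after 24 h of APH. Per kilobase of exon, Tubb3 in wtATMIN (17.7 CPM per kb) and Sox2 in ATM knock-out cells (26.2 CPM per kb) were the highest levels of the group, and Celf5 did not exceed 1.06 CPM per kb in any line mean.

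For 5 of the 8 genes (Sox2, Syndig1, Nrg2, Myf5 and Dlx3), every library of 1 line was above every library of the other 3 lines. This held for 12.4% of the 18484 genes tested, and since the genes were chosen for such differences nothing is read from the count. Ranges of the 8 libraries did not overlap for 26.0% of tested genes between ATM knock-out cells and wtATM, for 14.5% between ATMIN knock-out cells and wtATMIN, and for 25.1% between wtATMIN and wtATM. In bulk RNA, fewer cells of a type and less RNA per cell cannot be told apart.

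Markers of the cell types that these genes belong to gave a mixed picture. Most fibroblast markers were present in all lines, but Thy1 was at 0.18 to 0.34 CPM outside ATM knock-out cells and Lum at 0.04 to 1.49 CPM in the line means. The 13 markers summed to at least 7249 CPM in every library, carried by collagens, Fn1 and Vim, and Vim averaged 4385 CPM in ATM knock-out cells, 3392 CPM in wtATM, 2790 CPM in ATMIN knock-out cells and 1931 CPM in wtATMIN. Of 13 neural progenitor markers Sox1, Sox3 and Otx2 were at 0 in all 32 libraries, while Nes was at 132 to 262 CPM in the line means. Of 17 neuronal markers Neurod1 and Rbfox3 had at most 0.00810 CPM in any line mean, and the summed level ran from 59.2 to 90.2 CPM in ATM knock-out cells, 34.96 to 48.0 CPM in wtATM, 72.6 to 91.3 CPM in ATMIN knock-out cells and 37.8 to 163 CPM in wtATMIN. The transcription factors Sox1, Sox3, Otx2 and Neurod1 were thus at or near 0 where Sox2, Tubb3 and Stmn2 were high. Other markers on these lists were not, such as the neural factor Zic1 at 49.3 CPM in wtATMIN. In ATM knock-out cells Pax6 averaged 6.58 CPM, against 0.0508 to 0.634 CPM in the other lines. Syn1 averaged 10.3 CPM there, against 1.35 to 2.36 CPM elsewhere. Against wtATM, 5 of 7 neuronal markers tested were at least 2-fold higher and 1 lower (adjusted p under 0.05, edgeR). Of 6 neural progenitor markers tested, 2 were higher and 1 lower. Of all tested genes 24.1% were called, and nothing is read from counts this small. The part of these cell types in the levels of the 8 genes was not tested.
wtATM differed from the other lines in muscle and epithelial markers. The 16 skeletal muscle markers summed to 37.3 to 84.2 CPM in wtATM libraries and to at most 12.3 CPM elsewhere. The cadherin Cdh15 (19.4 CPM) and Pax3 (15.8 CPM) led, with Myod1 at 1.01 CPM. Pax7, Myog, Myh3, Myh8, Ckm, Tnnt3 and Msc were at 0 to 0.20 CPM in wtATM, and Mylpf, at 0.63 CPM, was not highest there. The 10 epithelial markers summed to 131 to 333 CPM in wtATM libraries and to at most 11.2 CPM elsewhere, led by Krt14 (138 CPM), Trp63 (58.1 CPM) and Krt5 (13.3 CPM), while Krt18, Cdh1, Epcam, Grhl2, Cldn4 and Cldn7 were at 0 to 0.14 CPM. Some muscle markers and the basal keratinocyte markers Krt14, Trp63 and Krt5 were therefore high in the same line as Myf5, Nrg2 and Dlx3, and their part in those levels was not tested.

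The tests ask whether the genes changed with APH inside a line. A gene was counted in a line where the libraries compared held at least 40 reads of it, a limit set after the counts were seen, which left 37 of 64 pairs of gene and comparison. Of these, 6 were higher with APH and 9 lower at an adjusted p under 0.05 (edgeR quasi-likelihood test, Benjamini-Hochberg over all genes). After 24 h, 1 of 4 genes was called in ATM knock-out cells, 3 of 6 in wtATM, 2 of 3 in ATMIN knock-out cells and 4 of 5 in wtATMIN. The share of all tested genes called was 27.9%, 28.7%, 30.2% and 28.8% in the same order of lines. After 4 h, 1 of 4 was called in ATM knock-out cells, 1 of 6 in wtATM, 1 of 4 in ATMIN knock-out cells and 2 of 5 in wtATMIN, where 29.4%, 5.58%, 20.4% and 15.0% of all tested genes were called. The 22 pairs not called had log2 fold changes between -0.64 and 0.34.

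Celf5, the RNA-binding splicing regulator, rose after 24 h of APH in all 4 lines. In ATM knock-out cells it had 7.10 and 7.44 CPM with APH, against 4.44 and 3.61 CPM with DMSO. In wtATM it had 19.3 and 22.7 CPM with APH, against 2.20 and 1.92 CPM with DMSO. The treated and control libraries did not overlap in either line, and the APH level of wtATM was the highest Celf5 level in the data.
In ATMIN knock-out cells Celf5 had 2.31 and 2.36 CPM with APH, against 0.537 and 0.505 CPM with DMSO. In wtATMIN it had 7.75 and 7.92 CPM with APH, against 2.11 and 1.52 CPM with DMSO. These groups did not overlap either.
The log2 fold changes were 0.85 ± 0.19 in ATM knock-out cells (adjusted p 0.000998), 3.34 ± 0.19 in wtATM (1.43e-15), 2.14 ± 0.35 in ATMIN knock-out cells (9.27e-06) and 2.08 ± 0.21 in wtATMIN (1.16e-09, edgeR). Each has a standard error worked out from the edgeR test statistic. By size, Celf5 ranked 843 of the 2907 genes called higher in ATM knock-out cells, 44 of 2666 in wtATM, 92 of 2648 in ATMIN knock-out cells and 132 of 2505 in wtATMIN. Of all tested genes, 2.68% were called higher in all 4 lines. After 4 h of APH no line passed the test, with log2 fold changes between -0.22 and 0.14.

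The genes around Celf5 did not all move with it. Its antisense gene Gm16105, with 22 to 128 reads per line against 158 to 905 for Celf5, also rose after 24 h of APH in wtATM (3.32 ± 0.41) and wtATMIN (1.80 ± 0.45). It did not pass the test in ATM knock-out cells (0.95 ± 0.44) or ATMIN knock-out cells (1.70 ± 0.68). Nfic, 3592 bases away, fell in wtATM (-0.56 ± 0.10), ATMIN knock-out cells (-0.56 ± 0.10) and wtATMIN (-0.31 ± 0.10), and Ncln, 3540 bases away on the other side, was called in no line. Of 4 other CELF genes tested, 0 were called higher in any line after 24 h of APH. In ATM knock-out cells, wtATM, ATMIN knock-out cells and wtATMIN 2, 2, 1 and 1 were called lower. Of all tested genes 13.6% to 15.7% were called higher and 12.2% to 15.8% lower in these comparisons, so nothing is read from counts over 4 genes.

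**Figure D2:**
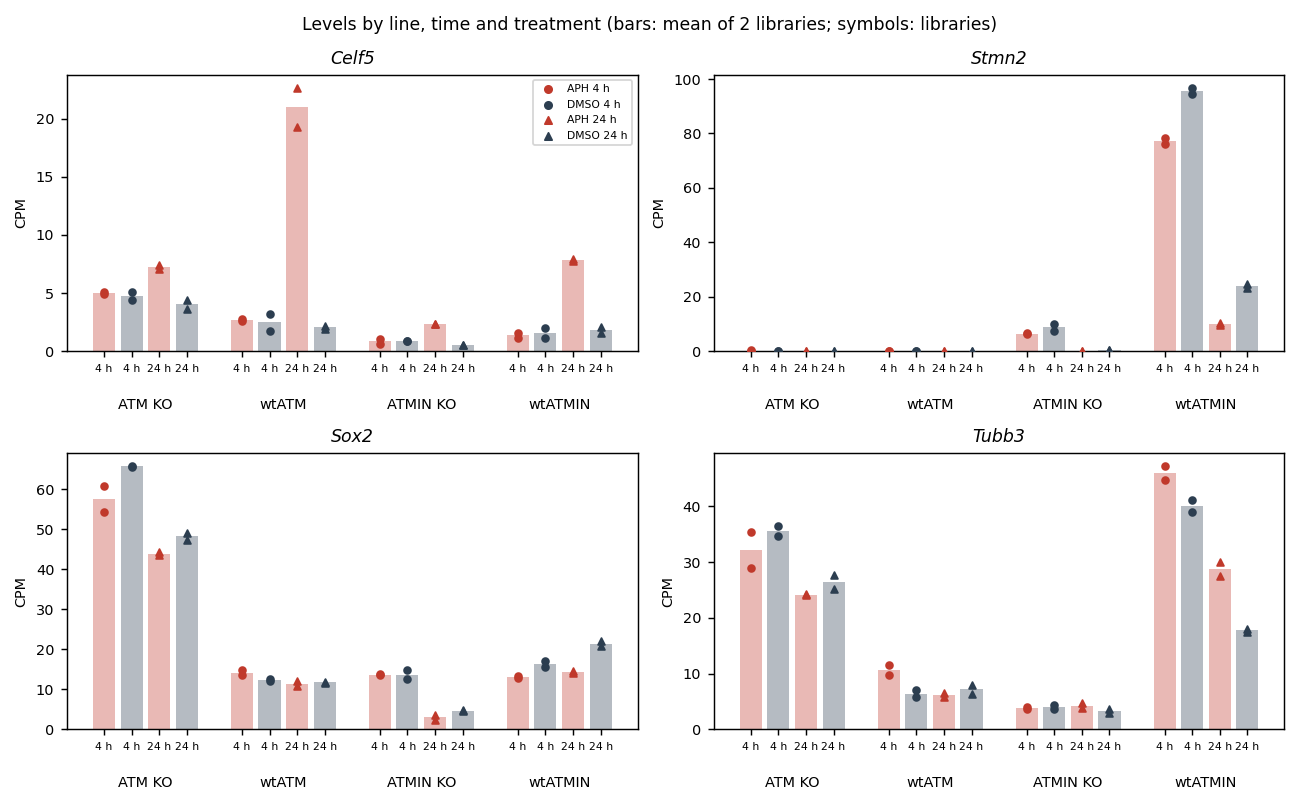
CPM of Celf5, Stmn2, Sox2 and Tubb3 by line, time and treatment; bars are means of 2 libraries (red APH, dark DMSO) and symbols are single libraries. Celf5 is above its DMSO libraries after 24 h of APH in every line, most of all in wtATM with 19.3 and 22.7 CPM.

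The neuronal cytoskeleton genes Stmn2 and Tubb3 moved in opposite directions in wtATMIN. After 24 h Stmn2 had 10.2 and 9.57 CPM with APH, against 24.7 and 23.2 CPM with DMSO. After 24 h Tubb3 had 30.1 and 27.5 CPM with APH, against 18.1 and 17.5 CPM with DMSO. No libraries overlapped in either comparison, and the log2 fold changes were -1.28 ± 0.13 for Stmn2 (adjusted p 5.29e-09) and 0.69 ± 0.11 for Tubb3 (4.82e-06, edgeR).
The readthrough gene Gm20388 that covers Tubb3 fell there (-0.51 ± 0.08). In ATMIN knock-out cells the value for Tubb3 at 24 h was 0.34 ± 0.19 and did not pass the test, and Stmn2 had too few reads for one. In the ATM pair at 24 h Tubb3 did not pass the test, at -0.13 ± 0.11 in ATM knock-out cells and -0.24 ± 0.15 in wtATM.
At 4 h Tubb3 rose in wtATM, with 9.84 and 11.6 CPM with APH against 5.8528 and 7.0003 CPM with DMSO. The log2 fold change was 0.71 ± 0.15 (adjusted p 0.00169, edgeR). The call was lost when DMSO replicate 1 was left out (0.60, adjusted p 0.0662) and when APH replicate 2 was left out (0.61, 0.0552). Among the other stathmins and beta-tubulins, 3, 4, 6 and 5 of 8 tested were called higher after 24 h of APH in ATM knock-out cells, wtATM, ATMIN knock-out cells and wtATMIN, and 0 lower. Of all tested genes 15.7%, 14.4%, 14.3% and 13.6% were called higher and 12.2%, 14.3%, 15.8% and 15.3% lower. The list medians were 0.37, 0.16, 0.50 and 0.50, beside medians of 0.00 to 0.01 over all genes. Stmn2 thus fell in a line where 5 of these 8 genes rose.

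Sox2 fell with 24 h of APH in both lines of the ATMIN pair. It had 2.46 and 3.59 CPM with APH, against 4.72 and 4.74 CPM with DMSO, in ATMIN knock-out cells. In wtATMIN it had 14.2 and 14.5 CPM with APH, against 20.8 and 22.1 CPM with DMSO. The log2 fold changes were -0.65 ± 0.17 (adjusted p 0.00305) and -0.58 ± 0.10 (3.07e-05, edgeR), and no libraries overlapped.
Without APH replicate 1 the ATMIN knock-out value was -0.39 and missed the threshold (adjusted p 0.200). In the ATM pair Sox2 did not pass the test in either line, at -0.14 ± 0.09 in ATM knock-out cells. Of 8 other SOX genes tested at 24 h, 1 was called higher and 3 lower in ATMIN knock-out cells (list median -0.42), and 0 higher and 4 lower in wtATMIN (-0.82). Fibroblast markers moved with Sox2 in these comparisons: of 13, 0 were called higher and 9 lower in ATMIN knock-out cells (median -0.68), and 0 higher and 8 lower in wtATMIN (median -0.57), where Stmn2 fell as well. Of all tested genes 14.3% were called higher and 15.8% lower in ATMIN knock-out cells, and 13.6% and 15.3% in wtATMIN. The part of the fibroblast markers in the changes of Sox2 and Stmn2 was not tested.

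The remaining APH calls were small and depended on single libraries or settings. Nrg2 had 7.39 and 11.6 CPM with 24 h of APH, against 14.5 and 14.7 CPM with DMSO, in wtATM. Its log2 fold change was -0.63 ± 0.20 (adjusted p 0.0175, edgeR), and -0.33 without APH replicate 1 (0.337), -0.64 without DMSO replicate 1 (0.0836) and -0.62 without DMSO replicate 2 (0.0855). The low value thus rested largely on 1 APH library.
Dlx3 in wtATM had 13.9 and 13.02 CPM with 24 h of APH, against 16.9 and 18.3 CPM with DMSO. The log2 fold change was -0.39 ± 0.13 (adjusted p 0.0240, edgeR), and it missed the threshold without any one of these 4 libraries, at -0.44 and -0.33 without DMSO replicate 1 and 2, and -0.44 and -0.35 without APH replicate 1 and 2. Myf5 did not pass the test at either time in the same line.
Syndig1 in ATM knock-out cells had 27.3 and 23.8 CPM with 4 h of APH, against 32.2 and 33.8 CPM with DMSO. The log2 fold change was -0.36 ± 0.14 (adjusted p 0.0467, edgeR). It was -0.28 and not called without APH replicate 2, the library with reads in the most receptor genes. APH replicate 1 was the library with the most Gm42418. The call was also lost without DMSO replicate 1 (-0.41), DMSO replicate 2 (-0.33) or any one of the 4 libraries of this line at 24 h (all -0.37), and the 24 h value was -0.34 ± 0.13 (0.0599). The 4 libraries with APH were below the 4 with DMSO at both times. Of 13 fibroblast markers 3 were called higher and 7 lower in the same 4 h comparison (median -0.23). Of the 18484 genes tested, 29.4% were called in that comparison, 2586 higher and 2847 lower. The part of the fibroblast markers in the Syndig1 change was not tested.
At 4 h Stmn2 was called lower in ATMIN knock-out cells (-0.46 ± 0.16, adjusted p 0.0462) and in wtATMIN (-0.31 ± 0.11, 0.0435), and Sox2 in wtATMIN (-0.32 ± 0.11, 0.0415, edgeR). Of 13 fibroblast markers 0 were called higher at 4 h in either line, and 5 lower in ATMIN knock-out cells and 4 in wtATMIN (both medians -0.24), whose part was not tested. Of all tested genes 9.48% were called higher and 10.9% lower in ATMIN knock-out cells, and 7.25% and 7.75% in wtATMIN. These calls of Stmn2 and Sox2 were lost in 16, 7 and 5 of the 32 fits that each left out 1 library. Their values then ran from -0.67 to -0.22, from -0.33 to -0.29 and from -0.39 to -0.25. DESeq2 1.42.0, fitted to all libraries here, called none of these 3, nor the changes of Nrg2, Dlx3 and Syndig1 above. The authors' deposited DESeq2 values for wtATMIN at 4 h do call Stmn2 (-0.29, adjusted p 0.00442), but not Sox2 (-0.26, 0.202). The smallest drop of Stmn2 in ATMIN knock-out cells was without DMSO replicate 1. At 4 h the Stmn2 libraries were 6.31 and 6.52 CPM with APH against 10.1 and 7.47 CPM with DMSO in ATMIN knock-out cells, and 76.1 and 78.3 CPM with APH against 94.5 and 96.8 CPM with DMSO in wtATMIN.

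**Figure D3:**
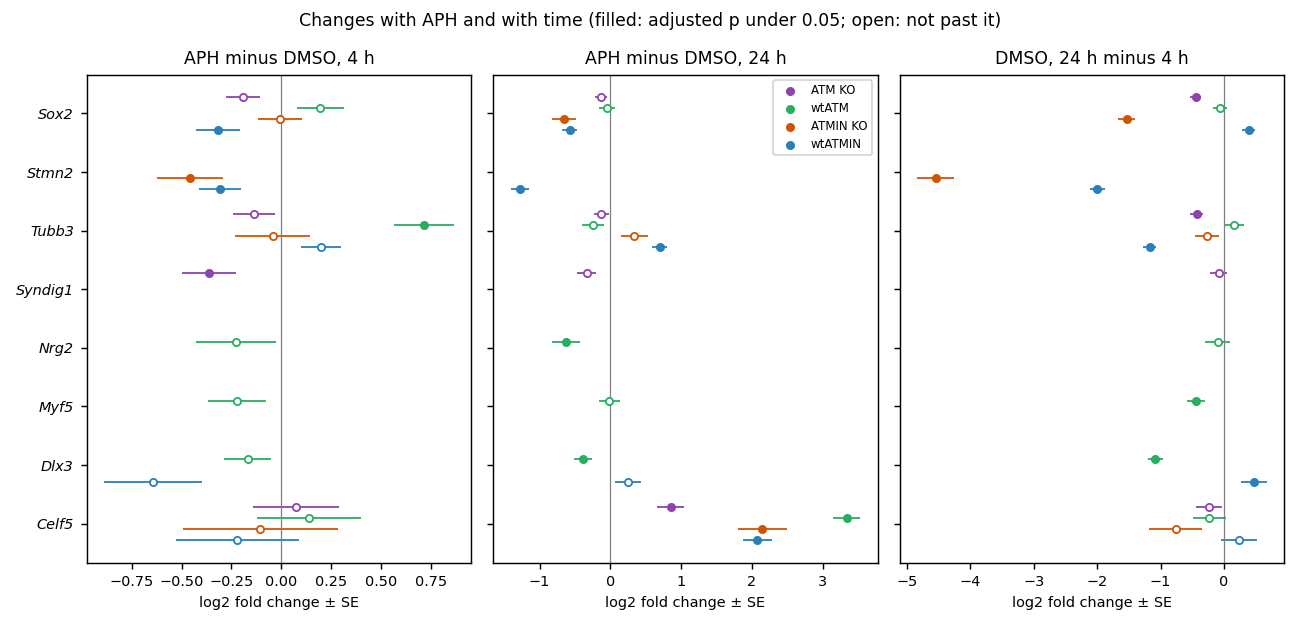
Log2 fold change with its standard error for APH against DMSO at 4 h and 24 h and for DMSO at 24 h against 4 h, for each gene and line with at least 40 reads; filled symbols passed an adjusted p of 0.05. Celf5 is the gene with filled symbols to the right of 0 in all 4 lines at 24 h, and Stmn2 has the lowest value with time (-4.55 in ATMIN knock-out cells).

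Whether the APH response differed between a knock-out line and its wild type was tested directly as a difference of responses. In the ATM pair 1 of 3 genes was called at 4 h (11.4% of all tested genes) and 1 of 3 at 24 h (3.92%). For Celf5 at 24 h the response of ATM knock-out cells minus that of wtATM was -2.49 ± 0.28 on the log2 scale (adjusted p 2.76e-07, edgeR). For Tubb3 at 4 h the difference was -0.85 ± 0.18 (0.00390), from a value of -0.14 ± 0.11 in ATM knock-out cells and 0.71 ± 0.15 in wtATM. Both calls held in all 32 fits without 1 library. The Tubb3 value was -0.72 without the ATM knock-out library with reads in the most receptor genes. The other ATM knock-out library with APH at 4 h had the most Gm42418.
In the ATMIN pair 0 of 4 genes were called at 4 h (0.671% of all tested genes) and 0 of 3 at 24 h (2.43%), by edgeR and by DESeq2. The Celf5 difference at 24 h was 0.07 ± 0.38 and that of Tubb3 -0.36 ± 0.22. Sox2 at 4 h, at 0.31 ± 0.15, had the smallest unadjusted p of these (0.0516), so 0 were under 0.05 without adjustment.

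With time in DMSO 2 of 19 pairs rose and 8 fell between 4 h and 24 h. Calls were made for 2 of 4 genes in ATM knock-out cells, 2 of 6 in wtATM, 2 of 4 in ATMIN knock-out cells and 4 of 5 in wtATMIN, where 48.7%, 46.4%, 47.2% and 55.5% of all tested genes were called. By direction, 23.1% to 29.1% of all tested genes were called higher and 23.3% to 26.3% lower. Nothing is read from the split over 19 pairs. The 4 h and 24 h libraries also differ throughout in Gm42418, so time and library batch cannot be told apart.
Stmn2 showed the largest change. In ATMIN knock-out cells it had 10.1 and 7.47 CPM at 4 h and 0.239 and 0.505 CPM at 24 h, a log2 fold change of -4.55 ± 0.29 (adjusted p 2.89e-14). In wtATMIN it had 94.5 and 96.8 CPM at 4 h and 24.7 and 23.2 CPM at 24 h, a log2 fold change of -1.99 ± 0.11 (5.96e-16, edgeR).
Sox2 changed in different directions in the lines. In ATMIN knock-out cells it had 12.6 and 14.8 CPM at 4 h and 4.72 and 4.74 CPM at 24 h (-1.54 ± 0.13, adjusted p 7.26e-12, edgeR). It also fell in ATM knock-out cells (-0.45 ± 0.08), rose in wtATMIN (0.39 ± 0.10) and did not pass the test in wtATM.
Tubb3 fell in wtATMIN, with 38.9 and 41.1 CPM at 4 h and 18.1 and 17.5 CPM at 24 h (-1.17 ± 0.11, adjusted p 1.40e-11, edgeR). It also fell in ATM knock-out cells (-0.43 ± 0.10), and whether the lines differ in this was not tested. Dlx3 fell in wtATM, with 36.4 and 38.1 CPM at 4 h and 16.9 and 18.3 CPM at 24 h (-1.08 ± 0.12, adjusted p 1.13e-08, edgeR).
Myf5 in wtATM was called lower (-0.44 ± 0.15, adjusted p 0.0147, edgeR), with 25.3 and 26.3 CPM at 4 h and 19.7 and 18.4 CPM at 24 h. The call was lost without DMSO 4 h replicate 2 (-0.41) or DMSO 24 h replicate 2 (-0.39). Dlx3 in wtATMIN was called higher by 0.47 ± 0.20 (0.0495), and the call was lost in 21 of 32 fits without 1 library, at 0.17 without DMSO 24 h replicate 1. DESeq2 called neither of these 2 changes. Nrg2 in wtATM and Syndig1 in ATM knock-out cells did not pass the test, and Celf5 was called in no line.

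The wider gene families were compared between lines, on lists that were drawn up with the line differences of the 8 genes known. Some listed genes averaged above the filter level of 0.618 CPM in 1 line alone, such as Sox6 and Myod1 in wtATM, Dlx5 in wtATMIN and Btc in ATM knock-out cells. The direction of such genes could be fixed by their passing the filter, so nothing is read from counts that include them. Calls here needed both an adjusted p under 0.05 (edgeR) and a change of at least 2-fold, which held for 24.1% of all tested genes for ATM knock-out cells against wtATM, 15.6% for ATMIN knock-out cells against wtATMIN and 23.5% for wtATMIN against wtATM. Among 8 SOX genes tested of 15, 4 were higher and 3 lower in ATM knock-out cells than in wtATM. Sox12, a neural and mesenchymal SOXC factor, was at 36.6 CPM in ATM knock-out cells, 19.8 CPM in ATMIN knock-out cells and 31.7 CPM in wtATMIN, and at 0.05 CPM in wtATM. Sox9, a chondrocyte and progenitor factor, was at 87.7 CPM in ATM knock-out cells and at 32.0 to 40.5 CPM in the other lines. SOX genes of the ATMIN pair were 1 higher and 3 lower in the knock-out line, and 3 were higher and 1 lower in wtATMIN than in wtATM.

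Of 7 synaptic genes related to Syndig1, 3 passed the filter on low counts and 4 (Syndig1l, Prrt1, Gria2 and Gria4) were at 0 to 0.14 CPM in every line mean. The AMPA receptor subunits Gria1 and Gria3 averaged 60.9 and 25.2 CPM in ATM knock-out cells, against 0.40 and 3.13 CPM in wtATM, and the related membrane protein gene Prrt2 averaged 5.46 CPM against 1.84 CPM. Their log2 fold changes were 7.63 ± 0.11, 3.22 ± 0.09 and 1.77 ± 0.11. Outside this line Gria1 averaged 0.07 to 0.40 CPM, so its direction followed from its passing the filter, and nothing is read from the count of 3. The ATMIN comparison had 0 higher and 1 lower, and wtATMIN against wtATM 0 higher and 2 lower. Gria2, the subunit that sets calcium permeability, averaged 0.14 CPM in ATM knock-out cells.
Ligands and receptors around Nrg2 also differed. Of 10 tested genes on a list of 14, 1 was higher and 3 lower in ATM knock-out cells than in wtATM. The receptor Egfr was at 6.76 CPM in ATM knock-out cells against 60.9 CPM in wtATM, the neuregulin receptor Erbb3 at 0.23 CPM against 4.87 CPM, and the ligand Btc at 22.8 CPM against 0.61 CPM. In ATMIN knock-out cells 0 were higher and 5 lower than in wtATMIN, with Tgfa at 1.48 CPM against 8.31 CPM and Erbb3 at 0.69 CPM against 4.56 CPM. wtATMIN had 1 higher and 1 lower than wtATM. Erbb4, the other receptor that binds neuregulins, was at 0 in wtATM, the line with Nrg2, and at 0.0139 CPM in ATM knock-out cells.

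Myogenic regulators gave a broken series in wtATM. Of 11 tested genes on a list of 14, 2 were higher and 3 lower in ATM knock-out cells than in wtATM. Myod1 and Myf6 averaged at most 0.03 CPM outside wtATM, so their direction against wtATM followed from their passing the filter. Nothing is read from the counts against wtATM. Pax3, which acts upstream of Myf5 in the embryo, was at 1.82 CPM in ATM knock-out cells against 15.8 CPM in wtATM, while the later factors Myod1 (1.01 CPM), Myf6 (0.50 CPM) and Myog (0.14 CPM) were low even in wtATM, where Myf5 averaged 21.4 CPM. Mef2c, a partner of the myogenic factors, was at 15.1 CPM in ATM knock-out cells against 2.53 CPM in wtATM. ATMIN knock-out cells had 1 higher and 4 lower than wtATMIN, among them Eya2 at 1.55 CPM against 21.7 CPM, and wtATMIN had 1 higher and 6 lower than wtATM. Myf6, the neighbour of Myf5 at 6719 bases, was highest in the same line.
Among 7 DLX and MSX genes, 0 were higher and 2 lower in ATM knock-out cells than in wtATM, and 0 higher and 5 lower in ATMIN knock-out cells than in wtATMIN. Dlx4, the neighbour of Dlx3 at 15151 bases, was at 0.18 CPM in ATM knock-out cells against 2.42 CPM in wtATM, and at 0.15 CPM in ATMIN knock-out cells against 2.20 CPM in wtATMIN. wtATMIN had 2 higher and 1 lower than wtATM. Dlx3 and Dlx4 were thus both above their knock-out line in each wild-type line.

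Relatives of Stmn2, Tubb3 and Celf5 were compared in the same way. Of 8 stathmins and beta-tubulins tested, 1 was higher and 2 lower in ATM knock-out cells than in wtATM, 0 reached 2-fold in the ATMIN pair, and 2 were higher and 2 lower in wtATMIN than in wtATM. In the ATMIN pair Tubb2a came nearest to 2-fold, with a log2 fold change of 0.95 ± 0.04, opposite to Tubb3. Of 4 CELF genes tested, 1 was higher and 1 lower in ATM knock-out cells than in wtATM, 0 reached 2-fold in the ATMIN pair, and 1 was higher and 0 lower in wtATMIN than in wtATM. Of 13 genes of the REST and Polycomb repressors, which keep neural and developmental genes silent in other tissues, 1 was higher and 0 lower in ATM knock-out cells, 0 reached 2-fold in the ATMIN pair, and 1 was higher and 0 lower in wtATMIN than in wtATM. Rest itself was at 78.4 CPM in ATM knock-out cells, 70.9 CPM in wtATM, 71.8 CPM in ATMIN knock-out cells and 76.9 CPM in wtATMIN.

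**Figure D4:**
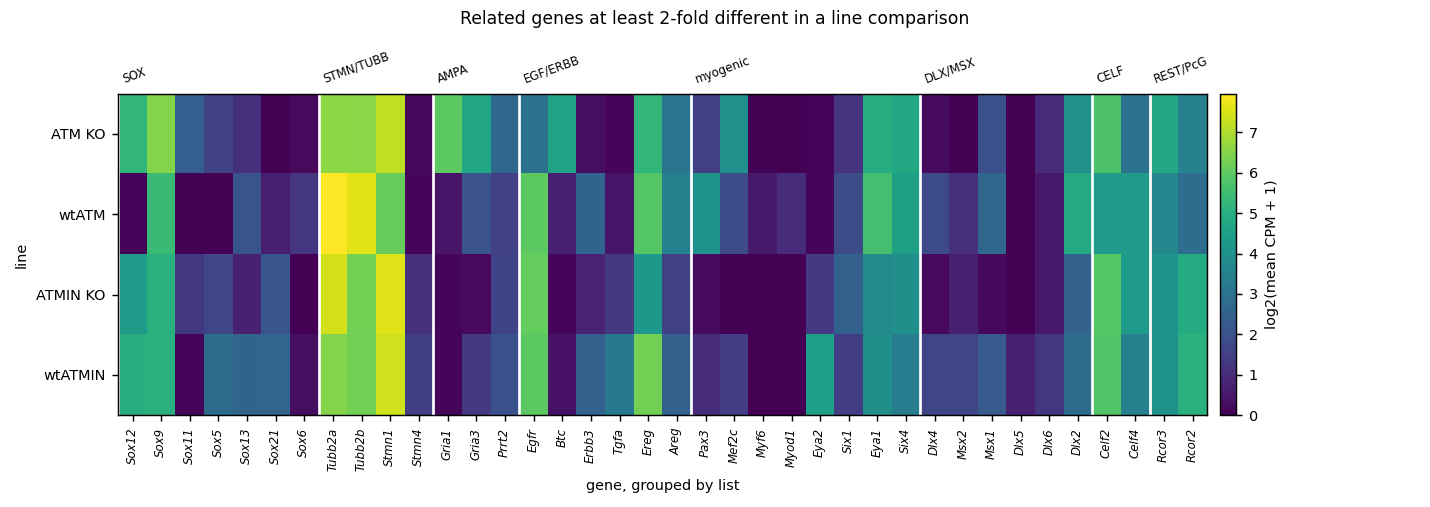
Mean level over 8 libraries, as log2(mean CPM + 1), of related genes that differed at least 2-fold in a comparison of lines, with lines in rows and genes grouped by list. Sox12 is lowest in wtATM at 0.05 CPM, and Gria1 is bright in ATM knock-out cells at 60.9 CPM.

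For each of the 8 genes the 3 genes most alike in level were found by Pearson's r of log2(CPM + 1) over the 32 libraries, which share lines and so are not independent. Syndig1 was most like Chn2 (0.997), Thy1 (0.996) and Lpl (0.995), and Thy1, a surface protein of neurons and some fibroblasts, averaged 233 CPM in ATM knock-out cells and 0.18 to 0.34 CPM in the other lines. Myf5 was most like Yap1 (0.998), Grik1 (0.997) and Ly9 (0.997). Nrg2 was most like the basal keratin Krt5 (0.992), Grik1 (0.991) and Yap1 (0.991). Yap1, a coactivator of the Hippo pathway, averaged 2985 CPM in wtATM and 134 to 138 CPM in the other lines. Grik1 and Yap1 were thus among the most alike for both Myf5 and Nrg2. Syndig1, Myf5 and Nrg2 were chosen for differences between lines, and each was near 0 outside a single line. Their likenesses follow that pattern, so nothing is read from the shared genes.
Dlx3 was most like Suox (0.970) and Pstpip1 (0.967), Stmn2 like the lactate transporter gene Slc16a3 (0.987) and F2rl1 (0.959), and Sox2 like Lphn1 (0.921) and Spry2 (0.919). Tubb3 was most like Vps4a (0.952) and Ahcy (0.950). Celf5 had the weakest likeness, to the p53-induced death domain gene Pidd1 (0.881), Tnfrsf26 (0.846) and Zxdb (0.843). The likeness to Celf5 was measured over libraries that include the 24 h APH ones, so a shared change there is part of the choice and is given as a description. Log2 fold changes of Pidd1 were 0.71 ± 0.09 in ATM knock-out cells, 1.02 ± 0.09 in wtATM, 0.63 ± 0.11 in ATMIN knock-out cells and 0.81 ± 0.10 in wtATMIN. Those of Tnfrsf26 were 1.79 ± 0.54, 2.46 ± 0.57, 2.399 ± 1.15 and 1.35 ± 0.74 in the same order of lines.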

How the data were processed

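RNA of 4 fibroblast lines was sequenced from TruSeq RNA v2 libraries, per the labels' protocols. The authors deposited raw read counts per Ensembl gene; Bowtie2 2.4.0, TopHat2 2.0.13 and DESeq2 1.6.3 on mm10 are listed per the submitters' processing notes, and the counting tool, strand setting and treatment of multiply mapped reads are not given in the sources used here. The authors' deposited tables give log2 fold changes and adjusted p-values from DESeq2, per the file headers; 120 other per-sample columns in them were not used. Treatments written AT and UT there were read as APH and DMSO. The members and the gene lists were chosen with earlier results of these data known.

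Counts of 32 libraries in 16 groups were fitted with edgeR 4.0.16 in R 4.3.3 (filterByExpr, 18484 genes; TMM; estimateDisp; robust glmQLFit; glmQLFTest), with p-values adjusted by Benjamini-Hochberg in each comparison and a threshold of 0.05. All groups shared 1 estimate of spread (common biological coefficient of variation 0.0643). Line comparisons averaged the 4 conditions. Errors are SD over libraries or, for fold changes, SE. The SE is the size of the log2 fold change divided by the square root of the edgeR F statistic. Bounds use 3 reads over a line's libraries; bounds and 95% exact counting intervals cover counting error only. Named genes are the 8 members, up to 4 genes with the smallest p per list and line comparison, the 3 most alike genes per member, neighbours, Atm and Atmin; markers, Gm42418 and further list genes such as Myog, Erbb4, Gria2, Nes and Rest were named after their values were seen. Symbols missing from the authors' tables came from GENCODE M21 on GRCm38. The fit was tested on simulated data. Values of some genes on the lists are not reported here. Alternatives were RLE scaling, library size only, no filter, a replicate block, DESeq2 1.42.0, compared groups alone and leaving out each library. Promoter windows were read in Python 3.11.15 (pandas 2.3.3), and figures were drawn with matplotlib 3.10.9.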

Additional observations from a re-analysis of the deposited data

Results flagged for a closer look

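The difference of APH responses between the ATM knock-out line and wtATM passed the test for 2 of the 8 genes. For Celf5 at 24 h it was -2.49 ± 0.28 (adjusted p 2.76e-07, edgeR), with the knock-out libraries at 7.10 and 7.44 CPM after APH against 19.3 and 22.7 CPM in wtATM, and 4.44 and 3.61 CPM after DMSO against 2.20 and 1.92 CPM in wtATM. For Tubb3 at 4 h it was -0.85 ± 0.18 (adjusted p 0.00390, edgeR), with the knock-out libraries at 35.4 and 28.8 CPM after APH against 9.84 and 11.6 CPM in wtATM, and 34.7 and 36.5 CPM after DMSO against 5.8528 and 7.0003 CPM in wtATM. The second of these 2 knock-out APH libraries, at 28.8 CPM, is the one with reads in 406 receptor genes. The first, at 35.4 CPM, is the one with 97900 CPM of Gm42418. Without 1 library at a time the 2 differences ran from -2.63 to -2.33 and from -1.03 to -0.72.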

How the results depend on the processing

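Of the 15 APH calls 7 were kept under all 6 alternatives and all 32 fits without 1 library: the 4 Celf5 calls at 24 h and those of Stmn2, Sox2 and Tubb3 in wtATMIN at 24 h. DESeq2 called 9 APH pairs (6 higher, 3 lower), against 15 (6 higher, 9 lower) with edgeR, and the cause was not tested; library size alone called 12 (6 higher, 6 lower). Without 1 library there were 12 to 17 APH calls. Of the 10 calls with time 8 were kept throughout, with 8 to 10 calls without 1 library and 8 with DESeq2, and both differences of response were kept, with 2 calls in each such fit. The Celf5 difference of response in the ATMIN pair, which was not called, ran from -0.19 without wtATMIN DMSO 24 h replicate 1 to 0.25 without replicate 2. Related-gene calls between lines numbered 71, and 69 to 73 without 1 library. The count of genes with 1 line above all others, 5, was 5 to 6 without 1 library and 6 with library size alone. Replicate numbers are shared between groups in the labels, but deviations of libraries with the same number correlated at -0.43 to 0.28, so they were not taken as pairs. With a replicate block there were 15 APH calls and 9 with time: Stmn2 at 4 h in the ATMIN knock-out line (adjusted p 0.0504) and Dlx3 with time in wtATMIN (0.0530) were lost, and Syndig1 at 24 h in the ATM knock-out line (0.0478) was gained. That Syndig1 change was also called by edgeR without the filter (adjusted p 0.0332) and with compared groups alone (0.00228). RLE scaling, library size alone and DESeq2 did not call it. Groups of 2 libraries and low counts limit Celf5 in the ATMIN knock-out line, where the 24 h comparison rests on 101 reads.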

Other observations

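Most markers of further cell types were low in all lines. The 11 glial and neural crest markers summed to at most 5.45 CPM in any library, with Foxd3 and Olig2 at 0 throughout. The 8 pluripotency markers summed to at most 12.4 CPM, beside Sox2 at 53.8 CPM in the ATM knock-out line. Nanog carried this sum, at 2.396 to 6.11 CPM in the line means. The others averaged at most 0.0508 CPM, with Dppa3 at 0 throughout. The 4 endothelial markers summed to at most 2.12 CPM. The 4 blood markers summed to 8.91 to 19.9 CPM over the libraries, and among them Csf1r averaged 8.98 to 13.6 CPM in the line means.

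Among neural genes outside the 8, Zic1, a factor of the dorsal neural tube and cerebellum, averaged 49.3 CPM in wtATMIN and 0.10 to 0.19 CPM in the other lines. Map2, a dendritic microtubule-associated protein, averaged 8.17 CPM in the ATM knock-out line, 0.01 CPM in wtATM, 42.5 CPM in the ATMIN knock-out line and 20.7 CPM in wtATMIN, an order unlike that of Tubb3 or Stmn2. These genes were chosen after their values were seen.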
